A study of Danio rerio and Xiphophorus maculatus with 12 samples.

Results

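Glutathione is a small thiol peptide that cells keep at high concentration. Glutathione transferases couple it to electrophiles, many of them products of lipid oxidation, and are grouped into classes such as mu, pi and theta. Glutathione peroxidases use it to reduce peroxides: the Gpx1 enzymes act on hydrogen peroxide and soluble hydroperoxides, and Gpx4 acts on hydroperoxides within membrane lipids, where it is the main brake on ferroptosis, an iron-dependent form of cell death. The cardiac ventricle is rich in mitochondria, a source of such peroxides. The 10 genes described here are the mu-class transferases gstm.1, gstm.2 and gstm.3, the pi-class transferase gstp1, the theta-class transferases gstt1a and gstt1b, and the peroxidases gpx1a, gpx1b, gpx4a and gpx4b.

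The genes were chosen by symbol, upper or lower case, with their counts in cryoinjured and uninjured ventricles of both species already known, so that their injury responses below are a description and not a test of the family. All 10 symbols had a row among the 32520 genes of the zebrafish table, and 8 of them passed the filter on low counts and were tested. In the platyfish table of 24209 genes, 2 of the 10 symbols had a row, gstt1a and gpx4a, and both were tested. The symbols gstm.1, gstm.2, gstm.3, gstp1, gstt1b, gpx1a, gpx1b and gpx4b matched no platyfish row, and 7648 platyfish genes carry no symbol, so these 8 genes were not analysed here in platyfish.

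The groups were cryoinjured zebrafish ventricles, uninjured zebrafish ventricles, cryoinjured platyfish ventricles and uninjured platyfish ventricles, with 3 libraries in each. All fish were wild-type adults, and every library was made from 8 pooled ventricles after the atrium and the bulbus arteriosus had been cut away. In cryoinjury a cold probe held to the ventricle destroys part of its wall. Cryoinjured hearts were taken on day 7, and the uninjured fish had undergone no procedure, so that effects of surgery and of freezing cannot be told apart. The series compares heart repair in zebrafish with that in platyfish, a livebearing teleost.

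Library totals were 20735097 to 24575554 counts in cryoinjured and 23610924 to 27994535 in uninjured zebrafish ventricles, and 25896418 to 26241176 in cryoinjured and 19073562 to 31148127 in uninjured platyfish ventricles. Zebrafish cryoinjured replicates 2 and 3 had 16530 and 15976 genes with at least 1 count. The other zebrafish libraries had more, 18102 to 18819. The zebrafish members and the called genes are also given without both of these replicates. Values without both rest on a lone cryoinjured library, replicate 1, set against the uninjured ones. Cardiomyocyte markers were abundant in every library, with none of the measured ones at 0, and liver markers summed to at most 1.09 CPM (counts relative to the library total) in zebrafish, with fgg, serpina1 and ttr at 0. In platyfish the liver markers summed to 13.2 to 34.4 CPM in cryoinjured and 3.36 to 3.44 CPM in uninjured ventricles, with ambp at 0. Unless given in CPM, levels below are normalised counts, that is, counts brought to the mean effective library size (TMM scaled) of the 6 libraries of a species. Transcript lengths were not at hand, so levels are compared between groups for each gene and never between genes or between species. Shares within a set of copies, given below, are shares of counts and not of transcripts, since they also depend on those lengths.

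In the zebrafish ventricle, gstm.3 was the member that rose after cryoinjury. No member fell past the threshold, an adjusted p under 0.05 in edgeR's quasi-likelihood test with Benjamini-Hochberg adjustment over all genes tested. Thus 1 of 8 tested members was called higher and 0 lower, where 0.676% of all 13470 tested genes were called higher and 0.304% lower. The 2 groups of libraries did not overlap for 4 of the 8 tested members, gstm.3, gstp1, gpx1b and gpx4a, where 21.7% of all tested genes had no overlap. The median log2 fold change was -0.11 over the tested members and -0.02 over all tested genes. The members were chosen with these values known, and nothing is read from these counts.

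**Figure D1:**
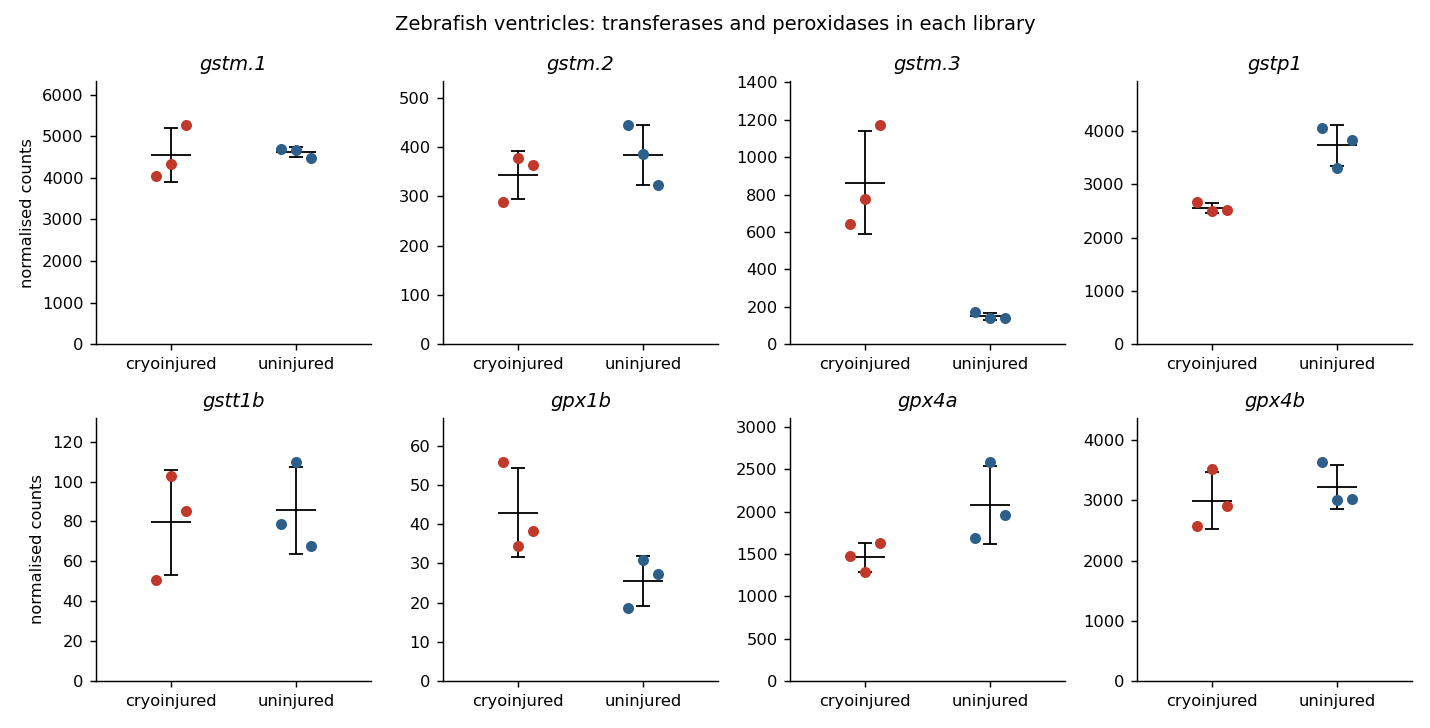
Normalised counts (vertical axes, from 0) of the 8 tested zebrafish members in 3 cryoinjured (red) and 3 uninjured (blue) libraries, each a pool of 8 ventricles; points are libraries in replicate order, and the line and bars are the mean and SD. The cryoinjured libraries lie above the uninjured ones for gstm.3 and gpx1b and below them for gstp1 and gpx4a, and the other 4 genes overlap.

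The mu-class transferases conjugate a broad range of electrophiles. In zebrafish, gstm.3 (ENSDARG00000088116, chromosome 8) had 640, 778 and 1173 normalised counts in cryoinjured libraries 1, 2 and 3, against 170, 137.5 and 142 in uninjured libraries 1, 2 and 3. The lowest cryoinjured library stood well above the highest uninjured one, and the cryoinjured libraries varied more among themselves. The means were 863.5 ± 276 and 149.9 ± 17.9 normalised counts (SD, n = 3 each), a 5.75-fold gain and a log2 fold change of 2.52 ± 0.23 (SE, edgeR adjusted p 0.00118). In bulk tissue, more RNA per cell and more cells of a type that holds the transcript cannot be told apart. The log2 fold change was 2.08 without cryoinjured replicates 2 and 3, the libraries with few detected genes, which leaves a lone cryoinjured library.

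The neighbouring gene gstm.1 (ENSDARG00000042533, chromosome 8) did not show that pattern. It had 4045.5, 4323 and 5275 normalised counts in cryoinjured libraries and 4706, 4675 and 4476 in uninjured libraries, with a log2 fold change of -0.02 ± 0.13. The groups overlapped, and the highest and the lowest value were both in cryoinjured libraries. For gstm.2 (ENSDARG00000029473, chromosome 8), the cryoinjured libraries had 289, 378 and 363 normalised counts and the uninjured ones 444, 386 and 322, with a log2 fold change of -0.16 ± 0.18. Its groups overlapped as well. The edgeR adjusted p was 0.954 for gstm.1 and 0.719 for gstm.2. The direction of both turned positive, at 0.15 for gstm.1 and 0.0037 for gstm.2, when counts were scaled by library size only, a scaling that moved the median of all zebrafish genes by 0.17.

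The 3 mu-class genes follow each other on chromosome 8 with 0 annotated genes between them, in the gene order of RefSeq's zebrafish assembly. Members of such a row can be alike enough to share reads. How reads that match several copies were counted is not given in the sources used here, so the split of reads between the copies is uncertain. Reads assigned to 1 copy or another add up in the sum of the 3 genes, but the sum also depends on whether reads matching several copies were left out or counted more than once. It averaged 5755 ± 949 normalised counts in cryoinjured and 5153 ± 194 in uninjured libraries (SD, n = 3 each). The log2 fold change of the sum was 0.16 ± 0.13 (edgeR adjusted p 0.609). The sum thus did not pass the threshold, and gstm.1 gave 77.4% to 90.6% of its counts in each library.

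The make-up of the mu-class counts differed between the groups. The share of gstm.3 among the counts of the 3 genes was 12.9%, 14.2% and 17.2% in cryoinjured libraries 1, 2 and 3, against 3.20%, 2.64% and 2.87% in uninjured libraries 1, 2 and 3. The exact 95% binomial interval of the lowest cryoinjured share was 12.01% to 13.78% and that of the highest uninjured share 2.76% to 3.69%, so the intervals of the groups do not meet. Such intervals cover counting error only. The mean share of gstm.3 was 14.8% ± 2.23 in cryoinjured and 2.91% ± 0.28 in uninjured libraries (SD, n = 3 each). The share of gstm.1 was 77.4% to 81.3% in cryoinjured and 88.5% to 90.6% in uninjured libraries, and that of gstm.2 averaged 6.01% ± 0.80 and 7.43% ± 0.91. The shares use the same libraries as the fold change of gstm.3 and are no separate evidence for it.

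**Figure D2:**
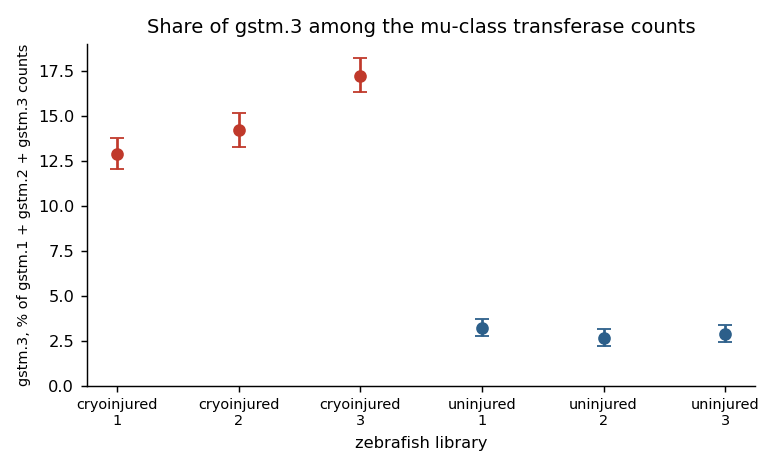
Share of gstm.3 in percent of the summed counts of gstm.1, gstm.2 and gstm.3 (vertical axis) in each zebrafish library (horizontal axis), with exact 95% binomial intervals as bars. The 3 cryoinjured libraries (red) lie between 12.9% and 17.2% and the 3 uninjured libraries (blue) between 2.64% and 3.20%.

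Cell type markers also differed between the zebrafish groups. Their sums are in CPM without TMM scaling, and scaling by library size only raised the median log2 fold change of all zebrafish genes by 0.17. Of all tested zebrafish genes, 0.676% were called higher and 0.304% lower. Summed macrophage markers were at 1229 to 1632 CPM in cryoinjured and 589.7 to 815 CPM in uninjured libraries. Of 12 tested markers 2 were higher, with log2 fold changes from -1.23 to 1.71 over the 12, and no marker was at 0. Such a sum is led by its most abundant genes. Neutrophil markers summed to 39.2 to 51.5 CPM and 7.82 to 28.4 CPM, with 1 of 5 tested markers higher. Fibroblast and epicardial markers summed to 265 to 337 CPM and 110.1 to 143 CPM, with 2 of 8 higher. Cardiomyocyte markers summed to 54523 to 68202 CPM in cryoinjured and 67737 to 77583 CPM in uninjured libraries, with 3 of 13 lower. Endothelial markers summed to 643 to 816 CPM and 485.5 to 566 CPM, red blood cell markers to 322 to 928 CPM and 509 to 1036 CPM, and exocrine pancreas markers to 3.81 to 6.75 CPM and 3.39 to 5.50 CPM, with no call in any of these 3 lists. The pancreas genes cela1.1 and ctrb1 were at 0. None of the neutrophil, fibroblast, cardiomyocyte, endothelial or red blood cell markers was at 0. The part of any of these cell types in the values of gstm.3, gstp1 and gpx4a was not tested.

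Over the 6 zebrafish libraries, the pattern of gstm.3 was closest to that of si:ch211-106h4.12, cygb1 and serpinb1 among 7320 genes with a symbol and a mean of at least 100 normalised counts. The gene si:ch211-106h4.12 (ENSDARG00000092920, chromosome 2) had 956, 1047 and 1464 normalised counts in cryoinjured and 174, 221 and 191 in uninjured libraries. Its root-mean-square difference from gstm.3 in centred log2 CPM was 0.20, and its log2 fold change was 2.56 ± 0.19 (edgeR adjusted p 0.000253). The cytoglobin gene cygb1 (ENSDARG00000099371, chromosome 3) had 157, 169.5 and 305 normalised counts in cryoinjured and 44.5, 24.2 and 21.3 in uninjured libraries. Its difference was 0.27, with a log2 fold change of 2.80 ± 0.39 (edgeR adjusted p 0.0109). For serpinb1 (ENSDARG00000055416, chromosome 20), a serine protease inhibitor gene, the cryoinjured libraries had 201, 351 and 327 normalised counts and the uninjured ones 65.8, 63.8 and 54.7. The difference was 0.27 and the log2 fold change 2.25 ± 0.27 (edgeR adjusted p 0.00454). All 3 were chosen for likeness to gstm.3 over these same libraries, so their fold changes and adjusted p values are no separate evidence.

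The pi-class transferase gstp1 (ENSDARG00000104068, chromosome 14), best known as an Nrf2 target in zebrafish, went the other way without passing the threshold. It had 2666, 2492 and 2525 normalised counts in cryoinjured libraries and 4055, 3306 and 3835.5 in uninjured libraries. All cryoinjured libraries were below all uninjured ones, and the cryoinjured ones were close to each other. The means were 2561 ± 92.6 and 3732 ± 385 normalised counts (SD, n = 3 each), a log2 fold change of -0.54 ± 0.12 (edgeR adjusted p 0.0655, unadjusted p 0.00105). The call depended on the method. The adjusted p was 0.0110 with DESeq2, which called 4.34% of all zebrafish genes it tested, 0.00909 with edgeR without a filter on low counts, and 0.0106 in the authors' deposited table, where the log2 fold change is -0.51.

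The theta-class transferases, which handle small halogenated and epoxide substrates in mammals, gave little signal in zebrafish. No read was counted for gstt1a (ENSDARG00000042428, chromosome 8) in any of the 6 libraries, which allows a level of up to 0.145 CPM in the library with the fewest counts and up to 0.107 CPM in the one with the most. Its copy gstt1b (ENSDARG00000017388, chromosome 21) had 50.6, 102.5 and 85.4 normalised counts in cryoinjured libraries and 78.7, 110.0 and 67.9 in uninjured libraries. The groups overlapped widely, with a log2 fold change of -0.11 ± 0.35 (edgeR adjusted p 0.915), which turned to 0.047 with scaling by library size only.

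The Gpx1 peroxidases were counted at low numbers in zebrafish. For gpx1a (ENSDARG00000018146, chromosome 11) the raw counts were 2, 2 and 4 in cryoinjured and 2, 1 and 5 in uninjured libraries, too few to pass the filter on low counts of the main fit. Its copy gpx1b (ENSDARG00000006207, chromosome 6) had 56.0, 34.5 and 38.3 normalised counts in cryoinjured libraries and 18.5, 30.8 and 27.4 in uninjured libraries. The groups did not overlap, but the gap between the lowest cryoinjured and the highest uninjured library was small. The log2 fold change was 0.75 ± 0.44 (edgeR adjusted p 0.447), and that of gpx1a and gpx1b summed was 0.70 ± 0.42 (edgeR adjusted p 0.467).

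Both Gpx4 peroxidases were well counted in zebrafish. For gpx4a (ENSDARG00000068478, chromosome 22), cryoinjured libraries had 1471, 1282 and 1629 normalised counts and uninjured libraries 1691, 2593 and 1964. The groups did not overlap, although cryoinjured replicate 3 came close to uninjured replicate 1. The means were 1461 ± 174 and 2083 ± 462 normalised counts (SD, n = 3 each), a log2 fold change of -0.51 ± 0.17 (edgeR adjusted p 0.199). It passed the threshold without a filter on low counts, with a log2 fold change of -0.53 (edgeR adjusted p 0.0421), and in none of the other alternatives tried. Its copy gpx4b (ENSDARG00000076836, chromosome 2) had 2574, 3518 and 2903.5 normalised counts in cryoinjured and 3646, 3004 and 3026 in uninjured libraries, with a log2 fold change of -0.11 ± 0.15 (edgeR adjusted p 0.772). Its groups overlapped, and its direction turned positive, at 0.057, with scaling by library size only. Summed, the pair averaged 4459 ± 383 normalised counts in cryoinjured and 5308 ± 304 in uninjured libraries, with a log2 fold change of -0.25 ± 0.11 (edgeR adjusted p 0.328). The share of gpx4a in the pair averaged 33.0% ± 5.46 in cryoinjured and 39.1% ± 7.33 in uninjured libraries, and the libraries of the groups overlapped.

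Without zebrafish cryoinjured replicates 2 and 3, replicate 1 was the lone cryoinjured library, and the values of several tested members moved. The log2 fold change was then -0.21 for gstm.1, -0.43 for gstm.2, -0.77 for gstt1b and -0.34 for gpx4b, each further below 0 than with all 6 libraries. It was 1.12 for gpx1b. Those of gstp1, at -0.50, and gpx4a, at -0.52, stayed close to the values with all libraries.

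In the platyfish ventricle, gstt1a rose and gpx4a was lower without passing the threshold. Thus 1 of 2 tested members was called higher and 0 lower, where 2.70% of all 15226 tested genes were called higher and 1.22% lower. Both members had groups that did not overlap, a property of 30.4% of all tested genes. The median log2 fold change was 0.23 over both members and 0.01 over all tested genes. Nothing is read from these counts either.

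**Figure D3:**
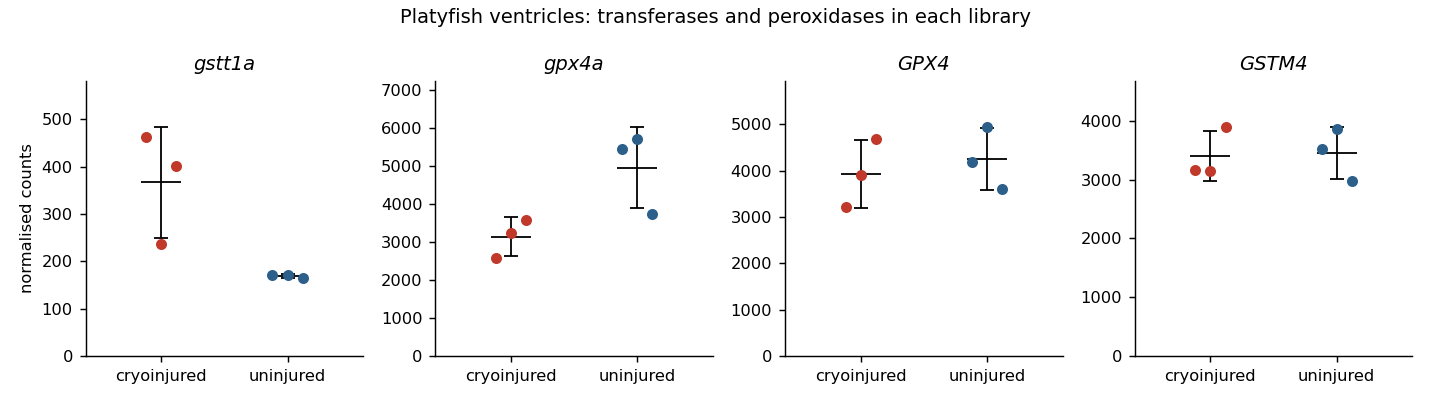
Normalised counts (vertical axes, from 0) of the platyfish members gstt1a and gpx4a and of the rows named GPX4 and GSTM4 in 3 cryoinjured (red) and 3 uninjured (blue) libraries, each a pool of 8 ventricles; the line and bars are the mean and SD. The cryoinjured libraries lie above the uninjured ones for gstt1a and below them for gpx4a, and the groups overlap for GPX4 and GSTM4.

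Platyfish gstt1a (ENSXMAG00000016826, chromosome 12) had 463, 236 and 401 normalised counts in cryoinjured libraries 1, 2 and 3, against 171.5, 171 and 164 in uninjured libraries 1, 2 and 3. The uninjured libraries lay close together, and cryoinjured replicate 2 was nearer to them than the other cryoinjured libraries were. The means were 367 ± 117 and 169 ± 4.20 normalised counts (SD, n = 3 each), a log2 fold change of 1.12 ± 0.24 or 2.17-fold (edgeR adjusted p 0.0424). This call was close to the threshold. It was lost without cryoinjured replicate 1 (log2 fold change 0.91, adjusted p 0.104) or 3 (1.04, 0.132) and without uninjured replicate 1 (1.12, 0.143), 2 (1.12, 0.125) or 3 (1.095, 0.0599), and kept without cryoinjured replicate 2 (1.35, 0.00991), in edgeR fits. It was also lost with limma voom, at 1.06 and an adjusted p of 0.0682, and under a replicate block in edgeR, at 1.07 and an adjusted p of 0.0680. The authors' deposited table gives it a log2 fold change of 0.96 and an adjusted p of 0.00222. Over all genes, the fits that leave out 1 platyfish library called 27 to 1008 genes, where the main fit called 597. Of these, only the fit without uninjured replicate 3 called more than the main fit.

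Platyfish gpx4a (ENSXMAG00000012006, chromosome 9) had 2568, 3241 and 3577 normalised counts in cryoinjured libraries and 5433, 5694 and 3726 in uninjured libraries. Uninjured replicate 3, the library with the fewest counts of the series, was close to the cryoinjured ones, and the other 2 uninjured libraries were far above them. The means were 3129 ± 514 and 4951 ± 1069 normalised counts (SD, n = 3 each), a log2 fold change of -0.66 ± 0.20 (edgeR adjusted p 0.0982). Without uninjured replicate 3 the log2 fold change was -0.83 (edgeR adjusted p 0.0348). That fit called 1008 of 15536 tested genes, where the main fit called 597 of 15226. DESeq2, which called 9.54% of all platyfish genes it tested, gave -0.68 with an adjusted p of 0.0229, and the authors' deposited table gives -0.63 with an adjusted p of 0.0220.

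Other platyfish rows carried names of the same families. A row named GPX4 (ENSXMAG00000019267, chromosome 6), a further Gpx4 gene, had 3213, 3899.8 and 4679.6 normalised counts in cryoinjured and 4197, 4946 and 3606 in uninjured libraries, with a log2 fold change of -0.11 ± 0.19 (edgeR adjusted p 0.749). Its groups overlapped, and its direction turned positive, at 0.022, with scaling by library size only. A mu-class row named GSTM4 (ENSXMAG00000009919, chromosome 1) had 3163, 3151 and 3899.9 normalised counts in cryoinjured and 3528, 3857 and 2979.9 in uninjured libraries, with a log2 fold change of -0.02 ± 0.16 (edgeR adjusted p 0.952). Its groups overlapped as well. Which zebrafish mu-class gene it corresponds to is not given by the files, and it was named after its values had been seen. A further row named GSTM4 (ENSXMAG00000009961) had raw counts of 0 to 4, too few to be tested.

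In platyfish, fibroblast and epicardial markers summed to 303 to 598 CPM in cryoinjured and 103 to 116 CPM in uninjured libraries. Of 7 tested markers 3 were higher, where 2.70% of all tested platyfish genes were called higher. The log2 fold changes of the 7 ran from -0.18 to 5.14. The platyfish sums too are without TMM scaling, and scaling by library size only raised the median log2 fold change of all platyfish genes by 0.13. Red blood cell markers summed to 288 to 705 CPM and 167 to 313 CPM, with 1 of 7 higher, and 1 of 2 tested liver markers was higher. Macrophage markers summed to 368 to 465 CPM and 249 to 476 CPM, neutrophil markers to 109.9 to 148 CPM and 49.4 to 143 CPM, endothelial markers to 645 to 934 CPM and 673 to 1003 CPM, and cardiomyocyte markers to 53801 to 60170 CPM and 57663 to 60524 CPM, with no call in these 4 lists. The 1 exocrine pancreas marker with a row was at 0.039 to 0.61 CPM in cryoinjured and 0.13 to 0.55 CPM in uninjured libraries. None of the measured markers of these lists was at 0, except ambp among the liver markers. The part of these cell types in the values of gstt1a and gpx4a was not tested.

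The 3 platyfish genes with the pattern most like that of gstt1a over the 6 libraries, among 9098 compared, were vat1, sync and fndc1. For vat1 (ENSXMAG00000008551, chromosome 16), cryoinjured libraries had 356, 168 and 328 normalised counts and uninjured ones 125, 129 and 134, with a root-mean-square difference in centred log2 CPM of 0.077. The difference was 0.10 for sync (ENSXMAG00000027712, chromosome 13), which had 245, 135 and 214 normalised counts in cryoinjured and 100.6, 88.9 and 105 in uninjured libraries. It was 0.11 for fndc1 (ENSXMAG00000003322, chromosome 15), with 781, 510.3 and 805 normalised counts in cryoinjured and 329, 330.1 and 314 in uninjured libraries. All 3 had their lowest cryoinjured value in replicate 2, as gstt1a did, but they were chosen for likeness to it over these same libraries. The log2 fold changes were 1.13 ± 0.27 for vat1, 1.01 ± 0.25 for sync and 1.11 ± 0.19 for fndc1. Of these, fndc1 passed the threshold (edgeR adjusted p 0.0202), and vat1 (0.0556) and sync (0.0569) did not.

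**Figure D4:**
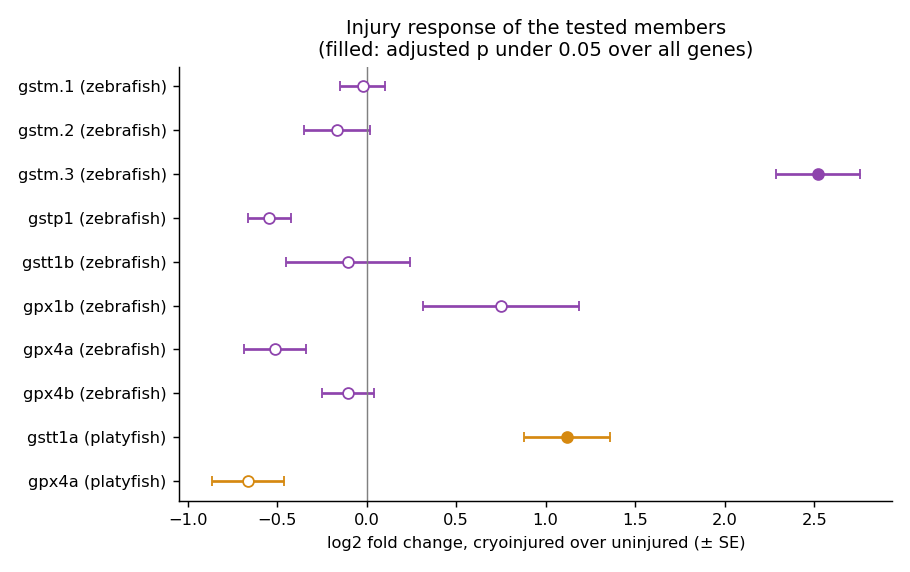
Log2 fold change of cryoinjured over uninjured ventricles (horizontal axis) with its standard error for the 8 tested zebrafish members (purple) and the 2 tested platyfish members (orange); filled symbols have an edgeR adjusted p under 0.05 over all genes. Zebrafish gstm.3 at 2.52 and platyfish gstt1a at 1.12 are filled, and gpx4a lies below 0 in both species, at -0.51 in zebrafish and -0.66 in platyfish.

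For the difference between the species, genes were matched by symbols that occur once in each table, which does not establish orthology. Of the 13662 matched symbols, 8098 were tested in a fit of all 12 libraries, and 2.49% of them were called by edgeR, 1.14% with a higher and 1.36% with a lower response in zebrafish. DESeq2 called 7.71% of the symbols it tested. Of the members, gstt1a and gpx4a were matched. The zebrafish gstt1a row had no reads and was not tested, so the gain of gstt1a in platyfish has no zebrafish value beside it. For gpx4a the log2 fold change was -0.51 ± 0.17 in zebrafish and -0.66 ± 0.20 in platyfish, a difference (zebrafish minus platyfish) of 0.15 ± 0.29 (edgeR adjusted p 0.815). The standard error is large beside the responses themselves, so the interval of the difference includes responses of unequal size as well as equal ones. The gpx4a difference was called in none of the 20 alternatives, and it was 0.15 without zebrafish cryoinjured replicates 2 and 3 as well.

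The wider glutathione and redox system was read from 7 lists: other transferases, other peroxidases, glutathione synthesis and turnover, the thioredoxin and superoxide enzymes, Nrf2 regulators and targets, selenoprotein synthesis, and ferroptosis genes. Counted once each, 119 of these genes had a row in zebrafish and 108 in platyfish. In zebrafish 1 of 86 tested genes was higher and 0 lower, a share of 1.16% where 0.980% of all tested genes were called. An unadjusted edgeR p under 0.05 was found for 18 of the 86, and for 15.5% of all tested genes. In platyfish 0 of 90 tested genes were called by edgeR, where 3.92% of all tested genes were. Of the 90, 21 had an unadjusted edgeR p under 0.05, as had 24.2% of all tested genes. DESeq2 called 10 genes of the lists, and 9.54% of all platyfish genes it tested. The median log2 fold change of the lists was -0.08 in zebrafish and -0.06 in platyfish, beside -0.02 and 0.01 over all tested genes.

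**Figure D5:**
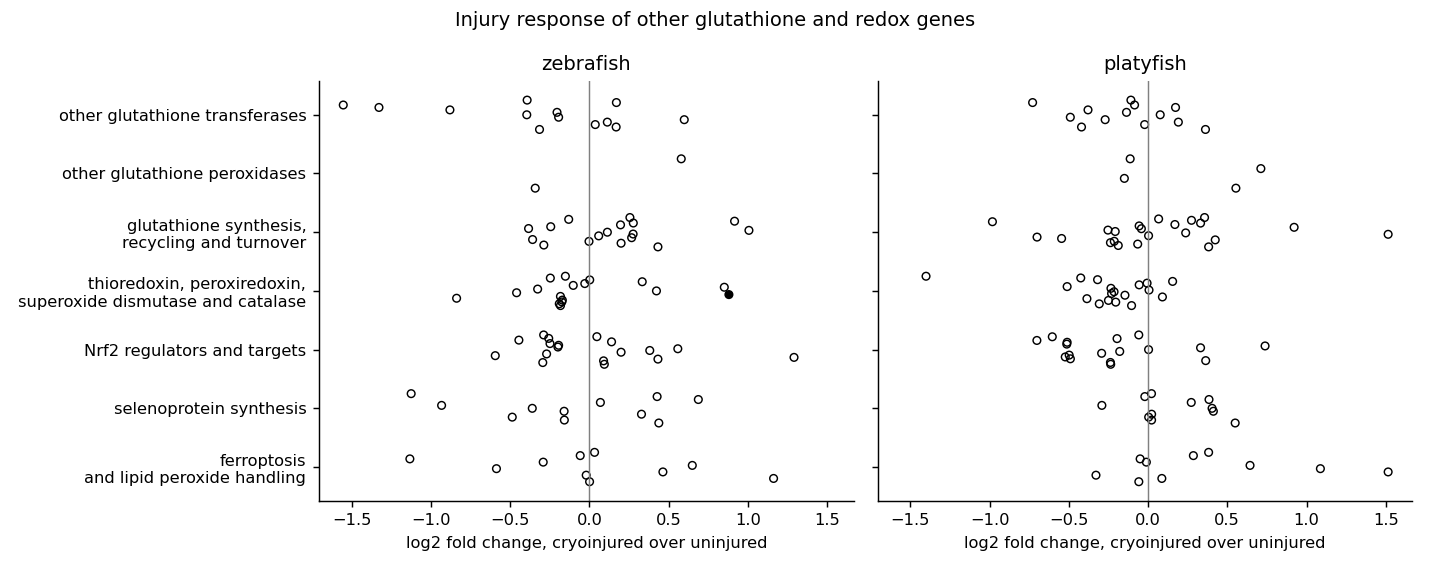
Log2 fold change of cryoinjured over uninjured ventricles (horizontal axis) of each tested gene in 7 lists of other glutathione and redox genes, for zebrafish (left) and platyfish (right); a gene in 2 lists appears in both, and vertical spread within a list carries no meaning. The filled point is zebrafish txnipa at 0.88, the one gene with an edgeR adjusted p under 0.05.

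Among the other transferases, 0 of 13 tested genes were called in zebrafish and 0 of 13 in platyfish. Zebrafish gstk1 (ENSDARG00000056510, chromosome 16), of the mitochondrial kappa class, had 4759, 4055 and 3391 normalised counts in cryoinjured and 6371, 4853 and 4823 in uninjured libraries, with a log2 fold change of -0.39 ± 0.16 (edgeR adjusted p 0.267), or -0.18 without cryoinjured replicates 2 and 3. The rho-class gene gstr, of a fish transferase class, had -0.19 ± 0.10 in zebrafish (ENSDARG00000042620) and -0.09 ± 0.17 in platyfish (ENSXMAG00000025404). Other platyfish rows also carry the name gstr and were named here after their values had been seen. Of these, ENSXMAG00000006919 had 0.36 ± 0.33 (edgeR adjusted p 0.542) and ENSXMAG00000023909 had 0.17 ± 0.52 (edgeR adjusted p 0.868), with overlapping groups. The rows ENSXMAG00000000819 and ENSXMAG00000006918 were higher in all cryoinjured libraries, with too few counts to be tested. Platyfish mgst3b (ENSXMAG00000026240, chromosome 19), a membrane-bound microsomal transferase, had 3468, 3587 and 3969 normalised counts in cryoinjured and 6546, 7254 and 4462 in uninjured libraries. Its groups did not overlap, with a log2 fold change of -0.73 ± 0.20 (edgeR adjusted p 0.0721). The adjusted p was 0.00670 with DESeq2, 0.0204 in edgeR without uninjured replicate 3 and 0.00641 in the authors' deposited table. The edgeR fit without that library called 1008 of all genes, where the main fit called 597.

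Among the other peroxidases, 0 of 2 tested genes were called in zebrafish and 0 of 4 in platyfish. The secreted peroxidase gpx3 had 7.66 to 40.6 normalised counts in cryoinjured and 9.26 to 25.3 in uninjured zebrafish libraries, with a log2 fold change of 0.58 ± 0.70. In platyfish gpx3 (ENSXMAG00000010097) had 1081 to 1854 normalised counts in cryoinjured and 1399 to 2044 in uninjured libraries, with -0.15 ± 0.22. The endoplasmic reticulum peroxidase gpx8 had -0.34 ± 0.62 in zebrafish, and -1.46 without cryoinjured replicates 2 and 3. The groups overlapped for gpx3 in both species and for zebrafish gpx8. Platyfish gpx8 (ENSXMAG00000002766) and GPX2 (ENSXMAG00000014369), named after their values had been seen, had groups that did not overlap, with log2 fold changes of 0.55 ± 0.22 (edgeR adjusted p 0.161) and 0.71 ± 0.39 (edgeR adjusted p 0.299).

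In glutathione synthesis, recycling and turnover, 0 of 17 tested genes were called in zebrafish and 0 of 22 in platyfish. Zebrafish chac1 (ENSDARG00000070426), which breaks glutathione down, had 6970.2, 10727 and 14554 normalised counts in cryoinjured and 3863, 5451 and 7774 in uninjured libraries, with a log2 fold change of 0.92 ± 0.33 (edgeR adjusted p 0.258). Its groups overlapped. It passed the threshold with DESeq2 (adjusted p 0.0170), with the replicate block in edgeR (0.0117) and in the authors' deposited table (0.0166), and was at 0.28 without cryoinjured replicates 2 and 3. The mitochondrial glutaredoxin gene glrx5 had -0.38 ± 0.12 in zebrafish (edgeR adjusted p 0.159). Platyfish slc3a2a (ENSXMAG00000008626), a subunit of amino acid exchangers that include the cystine importer, had 4562, 5373 and 4150.4 normalised counts in cryoinjured and 6728, 7210.0 and 6620.2 in uninjured libraries. Its groups did not overlap, with a log2 fold change of -0.55 ± 0.15 (edgeR adjusted p 0.0802, DESeq2 adjusted p 0.00708, and 0.00676 in the authors' deposited table). The cystine importer gene slc7a11, named after its values had been seen, went the other way in platyfish. It had 114, 67.6 and 75.2 normalised counts in cryoinjured and 13.5, 46.0 and 30.7 in uninjured libraries. Its log2 fold change was 1.52 ± 0.44 (edgeR adjusted p 0.0863). In zebrafish slc7a11 had raw counts of 6, 13 and 9 in cryoinjured and 0, 0 and 3 in uninjured libraries, too few to be tested. The glyoxalase gene glo1 had -0.21 ± 0.20 in platyfish. The smallest adjusted p of the list in platyfish was that of oplah, also named after its values had been seen. It had 466, 442 and 523 normalised counts in cryoinjured and 964, 1276 and 581 in uninjured libraries. Its cryoinjured libraries were lower without overlap, at -0.98 ± 0.26 (edgeR adjusted p 0.0693), but uninjured replicate 3 was close to them.

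In the thioredoxin, peroxiredoxin, superoxide dismutase and catalase list, 1 of 17 tested genes was higher in zebrafish and 0 of 18 were called in platyfish. Of all tested genes, 0.676% were called higher in zebrafish and 3.92% were called in platyfish, so nothing is read from these counts. The gene that rose was txnipa (ENSDARG00000036107, chromosome 19), whose mammalian counterpart binds and inhibits thioredoxin. It had 7587, 9928 and 11617 normalised counts in cryoinjured zebrafish libraries, against 5469, 5128 and 5224 in uninjured ones. The groups did not overlap, and the cryoinjured libraries spread more widely. The means were 9711 ± 2024 and 5274 ± 175 normalised counts (SD, n = 3 each), a log2 fold change of 0.88 ± 0.15 (edgeR adjusted p 0.0255). Over the 6 fits that leave out 1 library, the log2 fold change of txnipa was 0.73 to 1.02. The fit without cryoinjured replicate 1 called 288 of all genes and the others 29 to 131, where the main fit called 132. The call of txnipa was lost when any zebrafish library other than cryoinjured replicate 1 was left out. Without cryoinjured replicates 2 and 3, which leaves 1 cryoinjured library, the log2 fold change of txnipa was 0.51.

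The mitochondrial superoxide dismutase gene sod2 (ENSDARG00000042644) had 4881, 4948 and 4827 normalised counts in cryoinjured zebrafish libraries and 6846, 6565 and 6737 in uninjured ones. These groups were tight and apart, with a log2 fold change of -0.46 ± 0.10 that did not pass the threshold (edgeR adjusted p 0.0643). It passed with DESeq2 (adjusted p 0.0176), in edgeR without a filter on low counts (0.0167) and in the authors' deposited table (0.0170). The cytosolic peroxiredoxin gene prdx2 had -0.18 ± 0.11 in zebrafish, or -0.35 without cryoinjured replicates 2 and 3, and the row named PRDX2 had -0.32 ± 0.19 in platyfish. In platyfish, txnipa (ENSXMAG00000003263, chromosome 13) had 6814, 7678 and 6390.5 normalised counts in cryoinjured and 7160.0, 8070.5 and 7212 in uninjured libraries. Its groups overlapped, with a log2 fold change of -0.10 ± 0.15 (edgeR adjusted p 0.706). The smallest adjusted p of this list in platyfish was that of msrb1b (ENSXMAG00000027955), named after its values had been seen. Its cryoinjured libraries were lower without overlap, at -1.40 ± 0.33 (edgeR adjusted p 0.0515).

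Of the Nrf2 regulators and targets, 0 of 18 tested genes were called in zebrafish and 0 of 17 in platyfish. Nrf2 is the transcription factor that switches on many glutathione genes under oxidative or electrophilic stress, and nfe2l2a encodes it. In zebrafish nfe2l2a (ENSDARG00000042824, chromosome 9) had 904, 1189.7 and 1136 normalised counts in cryoinjured and 668, 769 and 757 in uninjured libraries. The cryoinjured libraries were all higher, with a log2 fold change of 0.56 ± 0.14 that missed the threshold (edgeR adjusted p 0.100). It passed with scaling by library size only (edgeR adjusted p 0.0359), with DESeq2 (0.0454), in edgeR without cryoinjured replicate 1 (0.0482) and in the authors' deposited table (0.0439). Without cryoinjured replicates 2 and 3, which leaves a lone cryoinjured library, it was at 0.29. In platyfish nfe2l2a (ENSXMAG00000029295, chromosome 7) had 2423, 3422 and 3581.5 normalised counts in cryoinjured and 4534.5, 4796 and 4998 in uninjured libraries. Here the cryoinjured libraries were all lower, with a log2 fold change of -0.60 ± 0.17 (edgeR adjusted p 0.0862), past the threshold with DESeq2 (0.0163) and in the authors' deposited table (0.0156). The ferritin heavy chain genes, which store iron, had -0.59 ± 0.22 for fth1a in zebrafish (edgeR adjusted p 0.249, and 0.0426 without uninjured replicate 2) and -0.20 ± 0.14 for fth1b in platyfish (edgeR adjusted p 0.412). The fth1a groups overlapped, at 16506 to 17892 normalised counts in cryoinjured and 17439 to 35469 in uninjured libraries, the lowest of these in replicate 2. The authors' deposited table gives fth1a an adjusted p of 0.0890. The autophagy receptor gene sqstm1 had 0.14 ± 0.12 in zebrafish.

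Gpx1 and Gpx4 enzymes are selenoproteins in vertebrates, so their translation needs the selenocysteine machinery. Of that list, 0 of 11 tested genes were called in zebrafish and 0 of 11 in platyfish. Zebrafish selenop (ENSDARG00000093549, chromosome 8), the selenium carrier protein, had 5944, 5033 and 4691 normalised counts in cryoinjured and 3148, 3718 and 2863 in uninjured libraries. The groups did not overlap, with a log2 fold change of 0.69 ± 0.14 just outside the threshold (edgeR adjusted p 0.0544). It passed in 5 of the 15 alternatives: relative log expression scaling (adjusted p 0.0496), library size only (0.0350), no filter on low counts (0.00143), the replicate block (0.0458), all with edgeR, and DESeq2 (0.00193). The authors' deposited table gives an adjusted p of 0.00187. The log2 fold change was 0.33 ± 0.19 for trnau1apb in zebrafish, which binds the selenocysteine transfer RNA, and 0.02 ± 0.13 for both sephs2 and SECISBP2L in platyfish.

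Of the ferroptosis and lipid peroxide genes, 0 of 10 tested genes were called in zebrafish and 0 of 10 in platyfish. The median log2 fold change of the list was -0.01 in zebrafish and 0.19 in platyfish. Zebrafish dhodh (ENSDARG00000051889, chromosome 7), a mitochondrial enzyme of pyrimidine synthesis that also protects lipids from peroxidation in mammals, had 335, 375 and 402 normalised counts in cryoinjured and 608, 513 and 547 in uninjured libraries. Its groups did not overlap, with a log2 fold change of -0.59 ± 0.15 (edgeR adjusted p 0.0991, and 0.0468 without a filter on low counts). Platyfish tfr1a (ENSXMAG00000011028, chromosome 6), a transferrin receptor that brings iron into cells, had 2009, 3109.8 and 2989.6 normalised counts in cryoinjured and 1057, 1910.1 and 846 in uninjured libraries. All cryoinjured libraries were higher, with a log2 fold change of 1.09 ± 0.31 (edgeR adjusted p 0.0905). It passed with scaling by library size only (edgeR adjusted p 0.0189), with DESeq2 (0.00786) and in the authors' deposited table (0.00751). The smallest adjusted p of the list was that of acsl4b in zebrafish and lpcat3 in platyfish, both named after their values had been seen. Both had higher cryoinjured libraries without overlap, at 1.16 ± 0.27 (edgeR adjusted p 0.0718) and 0.64 ± 0.15 (edgeR adjusted p 0.0505). The acsl4b gene passed with library size only, without a filter, with DESeq2 and with the replicate block. The ferritin receptor gene ncoa4 had -0.02 ± 0.17 in zebrafish, or -0.34 without cryoinjured replicates 2 and 3, and -0.06 ± 0.22 in platyfish.

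In the difference between species, 2 of 65 tested genes of these lists were called, where 2.49% of all 8098 tested symbols were. Of the 65, 12 had an unadjusted edgeR p under 0.05, as had 19.5% of all tested symbols. For nfe2l2a the zebrafish response was 1.16 ± 0.23 higher on the log2 scale than the platyfish response (edgeR adjusted p 0.0216), and the libraries of each species were apart in opposite directions. For txnipa the zebrafish response was 0.98 ± 0.22 higher (edgeR adjusted p 0.0363). The nfe2l2a call was lost without zebrafish cryoinjured replicate 2, zebrafish uninjured replicate 1 or 3, or platyfish uninjured replicate 2, with adjusted p values of 0.0510 to 0.0632. Those fits called 66 to 121 of all symbols, where the main fit called 202. The txnipa call was kept in 3 of the 12 fits that leave out 1 library, those without zebrafish cryoinjured replicate 1, platyfish cryoinjured replicate 2 or platyfish uninjured replicate 3, and it was lost with the replicate block (0.97, edgeR adjusted p 0.0996). Without both zebrafish cryoinjured replicates 2 and 3, which leaves 1 cryoinjured zebrafish library, the difference was 0.90 for nfe2l2a and 0.61 for txnipa.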

How the data were processed

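Stranded poly(A) RNA-seq libraries of pooled ventricles were counted per gene; 3 libraries per group were grouped by the labels. The authors deposited raw counts per gene, used here unchanged, and a second table per species with normalised counts (a signal in which every column was the raw count times 1 constant per library), log2 fold changes, their standard errors, test statistics as scores, and p-values, all by DESeq2 per the file headers. The submitters' processing notes name FastQC, HISAT2 2.2.1, featureCounts 2.0.1, DESeq2 1.38.3 and the zebrafish build GRCz11 for both species; the annotation release, the strand setting and the treatment of multiply mapped reads are not given in the sources used here. For the cryoinjured platyfish libraries, the label for treatment names zebrafish; the samples were taken as platyfish, as their title, organism and library name say.

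The main fits, 1 per species, were made in R 4.3.3 with edgeR 4.0.16 (filterByExpr, TMM factors, robust dispersions, glmQLFit, glmQLFTest), with Benjamini-Hochberg adjustment over all genes tested and a threshold of 0.05. The species difference used 4 group means over 12 libraries. SE is the log2 fold change over the square root of F. Summed copies replaced the copies in the same fit. Alternatives were other scalings and filters, DESeq2 1.42.0, limma 3.58.1 voom, a replicate block and omission of libraries; leaving out both libraries with few detected genes was added after the data had been seen. The deposited log2 fold change was nearer 0 than that of DESeq2 1.42.0 for zebrafish gstm.3 (2.21 against 2.53) and gstp1 (-0.51 against -0.54). The cause of this was not tested. The likeness measure used log2 CPM with a prior count of 2. The scripts were tested on simulated counts, and figures were drawn with matplotlib 3.10.9. Reads without molecular identifiers are not independent molecules, so intervals and the floor of 3 counts cover counting error only. Replicate libraries were no copies of each other: their counts differed with a chi-square of 23.2 or more for each degree of freedom.

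The members and all lists were chosen with earlier results of these data known. Named were all members with a row, and the 3 genes of most similar pattern to the member with the smallest adjusted p in each species. Of each list, the called genes, the 2 others with the highest mean and any gene called in the species difference were named. Zebrafish nfe2l2a was named only through its call in that difference, which uses the same libraries. Further genes, named after their values had been seen, are marked so in the text. RefSeq's zebrafish gene table gave the gene order on chromosome 8.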

Additional observations from a re-analysis of the deposited data

Results flagged for a closer look

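The injury response of nfe2l2a, which encodes Nrf2, differed between the species by 1.16 on the log2 scale (zebrafish minus platyfish; edgeR adjusted p 0.0216 in the test of the difference), with log2 fold changes of 0.56 ± 0.14 in zebrafish and -0.60 ± 0.17 in platyfish, neither of which passed the threshold in its own species with the main settings. The zebrafish response passed in 3 of 15 alternatives, the platyfish response with DESeq2 alone among 14, and both in the authors' deposited table; the difference was called in 15 of 20 alternatives. The response of txnipa differed by 0.98 (edgeR adjusted p 0.0363), with 0.88 ± 0.15 in zebrafish, where it passed, and -0.10 ± 0.15 in platyfish. It was called in 9 of 20 alternatives, 3 of them among the 12 that leave out 1 library, and was lost with the replicate block. Without both zebrafish libraries with few detected genes, which leaves 1 cryoinjured zebrafish library, the differences were 0.90 for nfe2l2a and 0.61 for txnipa. Both genes belong to the wider lists and not to the 10 members. They are the 2 called of 65 tested list genes, a share of 3.08%, where 2.49% of all 8098 tested symbols were called. Genes were matched by symbol, which does not establish orthology.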

How the results depend on the processing

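Numbers of calls depended on the method. Of the zebrafish members, 1 was called with the main settings (gstm.3), 2 with DESeq2 (gstm.3 and gstp1), 3 without a filter on low counts (gstm.3, gstp1 and gpx4a) and 1 in the other alternatives, including every fit that left out 1 library (1 to 1). The log2 fold change of gstm.3 lay between 2.08 and 2.69, past the threshold in all 14 alternatives. Of the platyfish members, 1 was called with the main settings, 2 with DESeq2, 0 with voom and 0 to 1 with a library left out. Of the wider lists in zebrafish, calls were 1 with the main settings, 2 with relative log expression scaling, 4 with library size only, 5 without a filter, 6 with DESeq2 and 0 to 2 with 1 library left out. In platyfish they were 0 with the main settings, 1 with library size only, 1 without mitochondrially encoded genes, 1 without a filter, 1 with voom, 10 with DESeq2 and 0 to 3 with a library left out. For the species difference they were 2 with the main settings, 5 with DESeq2 and 0 to 3 with a library left out. Over all genes, DESeq2 called 524 in zebrafish and 1591 in platyfish where edgeR called 132 and 597, and edgeR without a filter called 517 in zebrafish. The cause was not tested. With 1 library left out, edgeR called 29 to 288 genes in zebrafish, 27 to 1008 in platyfish and 66 to 480 symbols for the species difference, where 202 were called with all libraries. Only without zebrafish cryoinjured replicate 1 or platyfish uninjured replicate 3 was a total above that with all libraries. Calls lost or gained in such fits are to be read beside these totals.

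Scaling by library size only moved the median of all genes by 0.17 in zebrafish and 0.13 in platyfish, and turned the direction of zebrafish gstm.1 (0.15), gstm.2 (0.0037), gstt1b (0.047), gpx4b (0.057) and ncoa4 (0.15) and of platyfish gstr (0.046), GPX4 (0.022), txnipa (0.037) and ncoa4 (0.093), none of them called. Relative to those medians none of these is above 0. Without both zebrafish libraries with few detected genes, trnau1apb was at -0.025. Leaving out 1 library gave values on both sides of 0 for zebrafish gstm.1 (-0.15 to 0.050), gstt1b (-0.33 to 0.13), gpx8 (-1.29 to 0.0033), gpx3 (-0.039 to 1.08) and ncoa4 (-0.20 to 0.11), and for platyfish gstr (-0.19 to 0.041), GPX4 (-0.27 to 0.013), gpx3 (-0.33 to 0.043), sephs2 (-0.027 to 0.082), SECISBP2L (-0.055 to 0.054) and ncoa4 (-0.24 to 0.13).

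The replicate numbers were tried as a replicate block. Libraries with the same number had correlations of their deviations from the group means of 0.134, 0.140 and 0.0123 (zebrafish) and -0.0854, -0.184 and -0.178 (platyfish), and the numbers were not taken as pairs. With the block, calls were 1 zebrafish member, 0 platyfish members (gstt1a at 1.07, adjusted p 0.0680), 4 zebrafish and 0 platyfish genes of the wider lists, and 1 for the species difference (nfe2l2a). Zebrafish gstt1a had no reads to test, and gpx1a was left out by the filter on low counts. In edgeR without that filter gpx1a was tested and not called. It was not called with DESeq2 either, and the authors' deposited table gives it no adjusted p.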
